A study of Caenorhabditis elegans with 10 samples.

Results

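The insulin receptor to DAF-16 signalling core is a set of 10 genes of Caenorhabditis elegans: daf-2, age-1, aap-1, daf-18, pdk-1, akt-1, akt-2, sgk-1, daf-16 and smk-1. The genes were given as a list and matched by symbol in the platform annotation, and all 10 were found among the 17118 genes measured. They are covered by 26 probe sets with exactly 1 symbol, and each gene is represented by its brightest probe set, by the mean of the 10 Affymetrix arrays. The 5 xpa-1 arrays came from a strain that carries the deletion allele ok698 of xpa-1 on chromosome I, and the 5 N2 arrays came from the wild-type strain Bristol N2. Both strains were untreated, of mixed stage and fed HT115(DE3) bacteria, and each array holds total RNA of worms pooled from many plates, so that an array is 1 pooled culture. The mutant is represented by a single allele, and the labels give no age and say nothing of outcrossing. The xpa-1 protein is the worm counterpart of human XPA, a factor of nucleotide excision repair, and the comparison asks how transcripts differ without added DNA damage.

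In the worm, insulin-like peptides act on the receptor DAF-2, which activates the phosphoinositide 3-kinase AGE-1. The lipid it makes recruits PDK-1, AKT-1 and AKT-2, and these kinases keep the FOXO transcription factor DAF-16 out of the nucleus. When signalling is low, DAF-16 enters the nucleus and turns on genes for stress resistance, long life and entry into the dauer larva, a stress-resistant resting stage. Much of this control works through phosphorylation and localisation, which an array of transcripts does not measure.

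The values are log2 probe set signals. Low signals in the file are logs of whole numbers and 0 is the lowest value it can hold, so dim probe sets move in coarse steps. Array medians lay between 4 and 4.25, and 10.3% to 12.2% of an array's values stood at 0. The xpa-1 transcript itself (K07G5.2) read 1, 1.58, 1, 0 and 0 on the xpa-1 arrays and 6.74, 6.88, 6.58, 6.52 and 6.38 on the N2 arrays, in the order of the labels (difference -5.90, SE 0.304, limma; exact permutation test, two-sided, p = 0.00794, the smallest that 5 arrays against 5 allow). The labels do not say where its probes lie against the deletion. Genes of adults and of larvae were both detected: all 22 genes of an oocyte and maternal list and 21 of 26 measured sperm genes had a mean log2 signal over 6, as did 8 of 15 molting genes. Early zygotic genes were dimmer, with 0 of 9 measured members over 6. A probe set's level depends on its probes, so levels are compared between arrays and not between genes.

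None of the 10 genes was called as different between the strains. In limma, with adjustment over all 17118 genes, 0 of 10 passed an adjusted p of 0.05, where 19 genes in all, or 0.111%, did. At an unadjusted p under 0.05 the count was also 0 of 10, against 3.32% of all genes. The xpa-1 and N2 arrays overlapped for each of the 10, while 0.374% of all genes had strains that did not overlap. The differences, given throughout as xpa-1 minus N2, were above 0 for 6 genes and below 0 for 4, with a median of 0.02 beside 0.02 over all genes. The 95% interval of the difference stayed inside a 1.3-fold change in either direction for 7 of the 10 genes and inside a 1.5-fold change for 9, all but daf-2. These intervals are not adjusted for their number, and the adjusted p was 1 for each of the 10 genes.

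**Figure D1:**
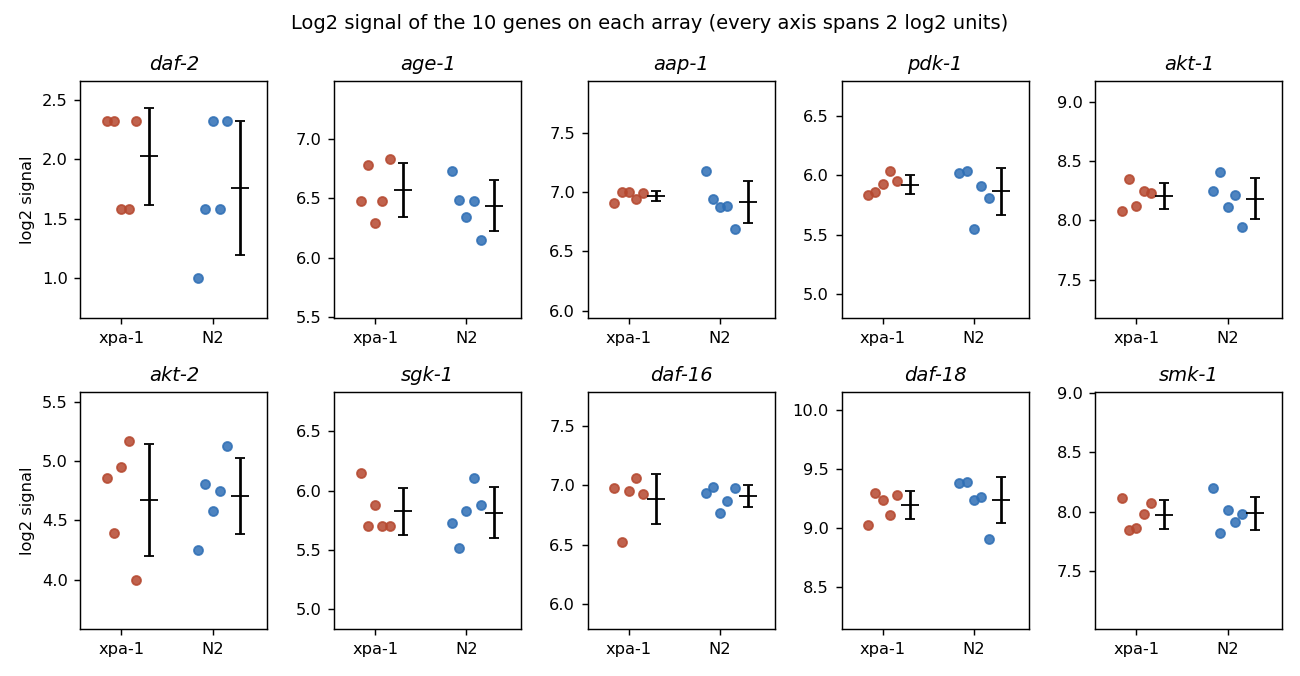
Log2 signal of the 10 genes on each array, with the 5 xpa-1 arrays at the left and the 5 N2 arrays at the right of each panel; points are arrays and the bar beside them is the mean ± SD (n = 5). The strains overlap in all 10 panels, and akt-2 and the dim daf-2 vary most between arrays of a strain.

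The receptor was the least well measured of the genes. daf-2 (Y55D5A.5, chromosome III), the insulin and IGF receptor of the worm, has 4 probe sets, and none rose above a log2 signal of 2.32 on any array. The brightest read 2.32, 2.32, 1.58, 1.58 and 2.32 on the xpa-1 arrays, against 1, 1.58, 2.32, 1.58 and 2.32 on the N2 arrays. The 2 strains shared the lowest steps of the scale, and the difference of 0.26 (SE 0.293, 95% interval -0.40 to 0.92) spans a fold change of 0.76 to 1.90. With an offset of 16 on the unlogged signal it was 0.04. Of the other probe sets of daf-2, 2 are listed at 0 on all 10 arrays and the third on 7 of them. The level of the receptor transcript was thus not resolved on these arrays, and the missing call says nothing about it.

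The lipid kinase and its opponent stood well above the floor. age-1 (B0334.8, chromosome II) encodes the catalytic subunit of phosphoinositide 3-kinase, and it read 6.48, 6.78, 6.29, 6.48 and 6.83 on the xpa-1 arrays. On the N2 arrays it read 6.73, 6.49, 6.34, 6.48 and 6.15. Its mean was 6.57 ± 0.23 in xpa-1 and 6.44 ± 0.21 in N2 (SD, n = 5 each), and the difference of 0.13 (SE 0.137, 95% interval -0.17 to 0.44) was the largest of the genes after daf-2. It was smaller than the SD within either strain. The other probe set of age-1, of the class whose probes can match related sequences, differed by 0.05 (SE 0.102). The probe set that stands for daf-2 is of the same class.

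The adaptor gene aap-1 (Y110A7A.10, chromosome I) encodes the regulatory subunit that partners AGE-1. It read 6.91, 7, 7, 6.94 and 6.99 on the xpa-1 arrays and 7.18, 6.94, 6.87, 6.88 and 6.69 on the N2 arrays. The xpa-1 values lay within 0.09 of each other and inside the span of the N2 values, which was 0.49. The strain means differed by 0.06 (SE 0.0871, 95% interval -0.14 to 0.25). Like xpa-1, aap-1 lies on chromosome I.

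daf-18 (T07A9.6, chromosome IV) encodes a lipid phosphatase that opposes AGE-1. It was bright, at 9.03, 9.30, 9.24, 9.11 and 9.28 in xpa-1 against 9.38, 9.39, 9.24, 9.26 and 8.91 in N2. The highest and the lowest of the 10 values were both N2 arrays. The difference was -0.04 (SE 0.104, 95% interval -0.28 to 0.19). A second probe set of daf-18 differed by 0.13 (SE 0.222), so that its probe sets pointed in opposite directions, each by less than its error.

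The kinase that activates AKT gave the least uniform picture across probe sets. pdk-1 (H42K12.1, chromosome X) read 5.83, 5.86, 5.93, 6.04 and 5.95 on the xpa-1 arrays and 6.02, 6.04, 5.55, 5.91 and 5.81 on the N2 arrays, a difference of 0.06 (SE 0.0998, 95% interval -0.17 to 0.28). The xpa-1 values again fell inside the N2 span. Of its other 4 probe sets, the next brightest, with a mean of 4.48, differed by 0.18 (SE 0.178), and a dimmer pair differed by -0.28 and 0.03. The dimmest is listed at 0 on all 5 xpa-1 arrays and at 0, 1, 1.58, 2 and 1.58 on the N2 arrays. Its difference of -1.23 (SE 0.326) had an unadjusted p of 0.00416 in limma and an adjusted p of 0.981 over the 20766 probe sets with 1 symbol, of which 0.0915% passed when adjusted and 3.19% had an unadjusted p under 0.05. All 10 of its values lie on the lowest steps of the scale, and 1 N2 array shared the 0 of the mutant. With the mean of all its probe sets in place of the brightest, the pdk-1 difference was -0.25 and still not called (limma adjusted p = 1).

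Both AKT genes were measured by a pair of probe sets. akt-1 (C12D8.10, chromosome V), which encodes a kinase that keeps worms out of the dauer stage, read 8.08, 8.35, 8.12, 8.25 and 8.23 in xpa-1, against 8.25, 8.41, 8.11, 8.21 and 7.94 in N2. Its difference was 0.02 (SE 0.0957, 95% interval -0.19 to 0.24), and its other probe set gave 0.08 (SE 0.089). akt-2 (F28H6.1, chromosome X), its close relative, read 4.86, 4.39, 4.95, 5.17 and 4 in xpa-1, against 4.25, 4.81, 4.58, 4.75 and 5.13 in N2. These akt-2 values spanned a 2.25-fold range over the arrays. The akt-2 difference of -0.03 had an interval of -0.58 to 0.52, the widest after that of daf-2. The other akt-2 probe set ran from 4.17 to 4.64 and differed by -0.07 (SE 0.112), so the wide range belongs to 1 of its probe sets.

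sgk-1 (W10G6.2, chromosome X), the serum- and glucocorticoid-inducible kinase that in the worm acts beside the AKT kinases and with TOR complex 2, has 1 probe set. It read 6.15, 5.70, 5.88, 5.70 and 5.70 on the xpa-1 arrays and 5.73, 5.52, 5.83, 6.11 and 5.88 on the N2 arrays. The strain means were 5.83 ± 0.20 and 5.81 ± 0.22 (SD, n = 5 each), and the difference was 0.01 (SE 0.129, 95% interval -0.28 to 0.30).

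daf-16 (R13H8.1, chromosome I), the FOXO factor at the end of the pathway, read 6.98, 6.52, 6.95, 7.06 and 6.93 in xpa-1 and 6.94, 6.99, 6.77, 6.87 and 6.98 in N2. A single value, 6.52 on xpa-1 replicate 2, lay below all others. The difference was -0.02 (SE 0.105, 95% interval -0.26 to 0.22), and 0.07 without that array. Of the other 3 probe sets of daf-16, those with means of 5.90 and 5.52 differed by 0.07 (SE 0.118) and -0.05 (SE 0.146), and the dim one by -0.16 (SE 0.334). The locus makes several isoforms from different promoters, and the annotation used here does not say which isoform each probe set reads.

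smk-1 (F41E6.4, chromosome V), the SMEK regulatory subunit of protein phosphatase 4 that DAF-16 needs for its effects on lifespan, read 8.11, 7.84, 7.86, 7.98 and 8.07 in xpa-1 and 8.20, 7.82, 8.01, 7.91 and 7.98 in N2. Its difference of -0.01 (SE 0.0888, 95% interval -0.21 to 0.19) was the smallest with that of sgk-1. Another bright probe set of smk-1 gave -0.03 (SE 0.064), and a dim one, with a mean of 2.41, gave 0.45 (SE 0.408).

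**Figure D2:**
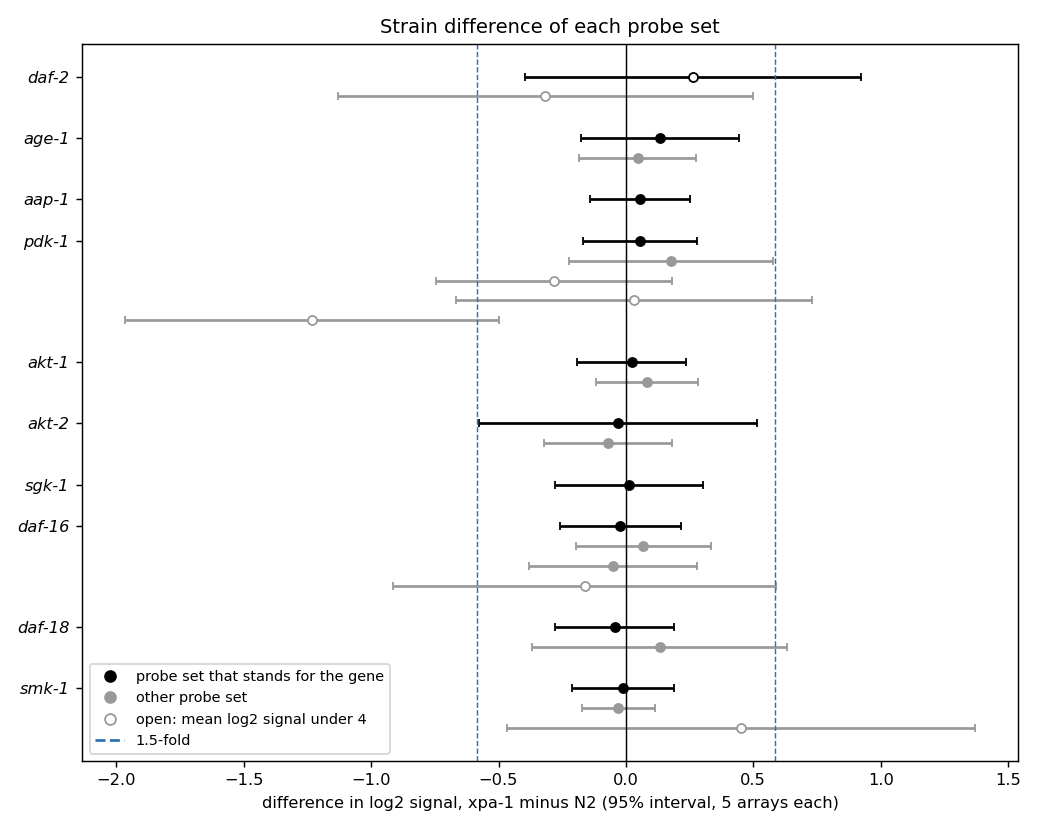
Difference in log2 signal, xpa-1 minus N2, with its 95% interval from limma (5 arrays per strain) for each probe set of the 10 genes; black marks stand for the gene, grey ones are its other probe sets, open marks have a mean log2 signal under 4, and dashed lines mark a 1.5-fold change. Probe sets listed at 0 on all arrays are not drawn. Among filled marks no interval leaves 0, and the only interval that does belongs to the dimmest probe set of pdk-1.

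The spread between arrays of a strain was compared as well as the level. The SD was smaller in xpa-1 than in N2 for 7 of the 10 genes and larger for 3 (age-1, akt-2 and daf-16). A smaller SD in xpa-1 was also the rule among the 5054 genes with a mean log2 signal over 6, of which 66.2% showed it, with a median SD of 0.161 in xpa-1 and 0.195 in N2. The widest contrast was in aap-1, with an SD of 0.041 in xpa-1 and 0.177 in N2, and next in pdk-1, with 0.082 in xpa-1 and 0.199 in N2. For aap-1 the N2 value was 0.108 without replicate 1, which read 7.18. For pdk-1 the N2 value was 0.107 without replicate 3, which read 5.55. The largest contrast in the other direction was in daf-16, with 0.212 in xpa-1 and 0.091 in N2. There the xpa-1 SD was 0.057 without replicate 2, below that of N2. The order also turned for daf-18, whose SD was 0.117 in xpa-1 and 0.195 in N2, and 0.078 in N2 without replicate 5. It turned for age-1, sgk-1 and smk-1 too, each without 1 array or another. The SD of sgk-1 in xpa-1 was 0.197, and 0.09 without replicate 1.

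None of these contrasts passed a test. Absolute deviations from the strain mean were compared in limma, and 0 of 10 genes passed (lowest adjusted p = 0.787), against 1.31% of the 16823 genes that varied at all. All 221 genes called there had a mean log2 signal under 4, where values move in steps, and in a fit of the 8678 genes at or above 4 the count was 0. By an exact permutation test of the ratio of the SDs, two-sided and unadjusted, the lowest of the 10 p-values was 0.135, for pdk-1, and those of aap-1 and daf-16 were 0.333 and 0.540. With 5 arrays a strain these tests leave wide room, and a p above the threshold does not show that the spread was equal.

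**Figure D3:**
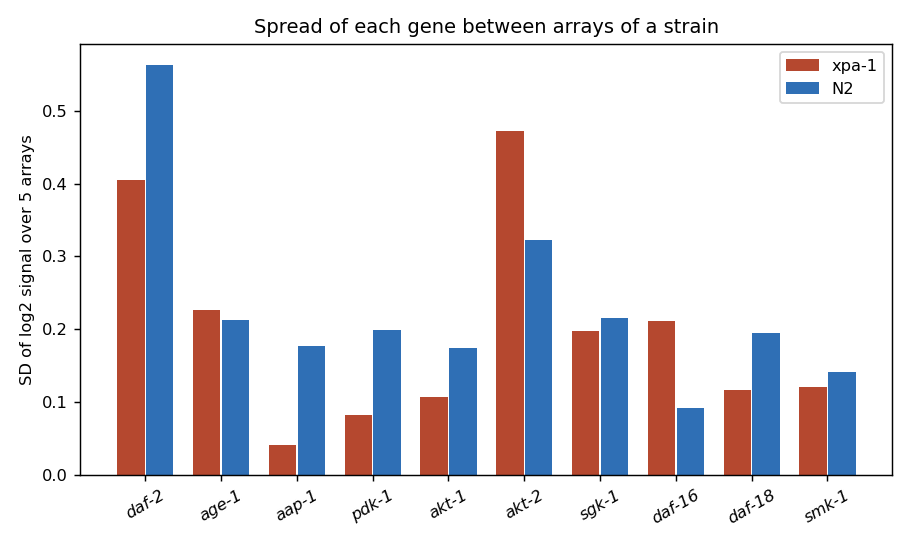
SD of the log2 signal over the 5 arrays of each strain, xpa-1 at the left and N2 at the right of each pair of bars. The bars of aap-1, pdk-1, akt-1 and daf-18 are lower in xpa-1 and those of akt-2 and daf-16 are higher; those of daf-18 and daf-16 change order without 1 array, and none of the contrasts passed a test.

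No strain difference was called, but several of the genes varied from array to array along with lists of stage genes. Deviations from the strain mean were set against the means of 3 stage lists over the 10 arrays: the sperm list, the oocyte and maternal list, and the molting list. In these whole-worm samples, fewer cells of a type and less RNA per cell cannot be told apart. The list means differed widely between cultures, by 5.54-fold for sperm, 1.64-fold for oocyte and maternal genes and 3.50-fold for molting genes, and the oocyte and molting lists ran opposite to each other (r = -0.92, permutation p = 5e-05, adjusted p = 0.00018 over 6 relations between lists; -0.93 without N2 replicates 1 and 5). Of 30 relations between genes and lists, 10 passed an adjusted p of 0.05 for Pearson's r and 7 for Spearman's rho. The permutations moved the deviations across strains without allowing for the removed strain means, so these p-values are approximate and can be too small. The counts are to be read beside the 5054 genes with a mean log2 signal over 6. Of these, 31.8% had an r with the oocyte list at or above 0.78 and 8.71% at or below -0.78. With the molting list, 24.2% lay at or below -0.76 and 11.1% at or above 0.76. With the sperm list, 1.82% lay at or above 0.80 and 0.376% at or below -0.80.

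The genes age-1, aap-1, akt-1 and daf-18 rose and fell with the oocyte and maternal list. For daf-18 the relation had r = 0.92 (permutation p = 6e-05, adjusted p = 0.0009) and rho = 0.89 (adjusted p = 0.0101), and for age-1 it had r = 0.89 (permutation p = 0.00022, adjusted p = 0.0022) and rho = 0.89 (adjusted p = 0.0101). For aap-1 r was 0.89 (permutation p = 0.00155, adjusted p = 0.0093) but rho was 0.69 (adjusted p = 0.0941). For akt-1 r was 0.78 (permutation p = 0.00887, adjusted p = 0.0296) and rho 0.66 (adjusted p = 0.111). N2 replicate 5, with the lowest oocyte list mean (9.11), held the lowest value of each of these 4 genes, and N2 replicate 1, with the highest (9.82), the highest value of aap-1.

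akt-2 ran the other way. Its relation to the oocyte and maternal list had r = -0.80 (permutation p = 0.00483, adjusted p = 0.0181) and rho = -0.88 (adjusted p = 0.0101), and to the molting list r = 0.84 (permutation p = 0.00258, adjusted p = 0.0129) and rho = 0.73 (adjusted p = 0.0774). Its lowest values, 4 on xpa-1 replicate 5 and 4.25 on N2 replicate 1, came from the arrays with the highest oocyte list mean of their strain. The related akt-1 and akt-2 thus ran in opposite directions against the oocyte list. The other probe set of akt-2, which varied less, had r = -0.24 with the oocyte list and 0.16 with the molting list.

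Against the molting list, age-1 had r = -0.94 (permutation p = 4e-05, adjusted p = 0.0009), aap-1 -0.84 (adjusted p = 0.00412) and daf-18 -0.76 (adjusted p = 0.0308). For akt-1, rho passed (-0.78, adjusted p = 0.0463) and r did not (-0.66, adjusted p = 0.1). sgk-1 was the only gene past the threshold with the sperm list, at r = 0.80 (permutation p = 0.00441, adjusted p = 0.0181) and rho = 0.68 (adjusted p = 0.0992). pdk-1 ran against the sperm list with r = -0.68 (adjusted p = 0.0902). daf-2, daf-16 and smk-1 passed with none of the 3 lists. Other probe sets of these genes, which were not used above, had r with the oocyte list of 0.92 for age-1, 0.79 for akt-1, 0.95 for daf-18 and 0.62 for pdk-1. The second bright probe set of smk-1 had 0.0021. Those of daf-16 with means of 5.90 and 5.52 had -0.58 and 0.11 with the oocyte list and 0.70 and -0.45 with the molting list, so its probe sets did not run alike. All of them read the same RNA on the same arrays.

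**Figure D4:**
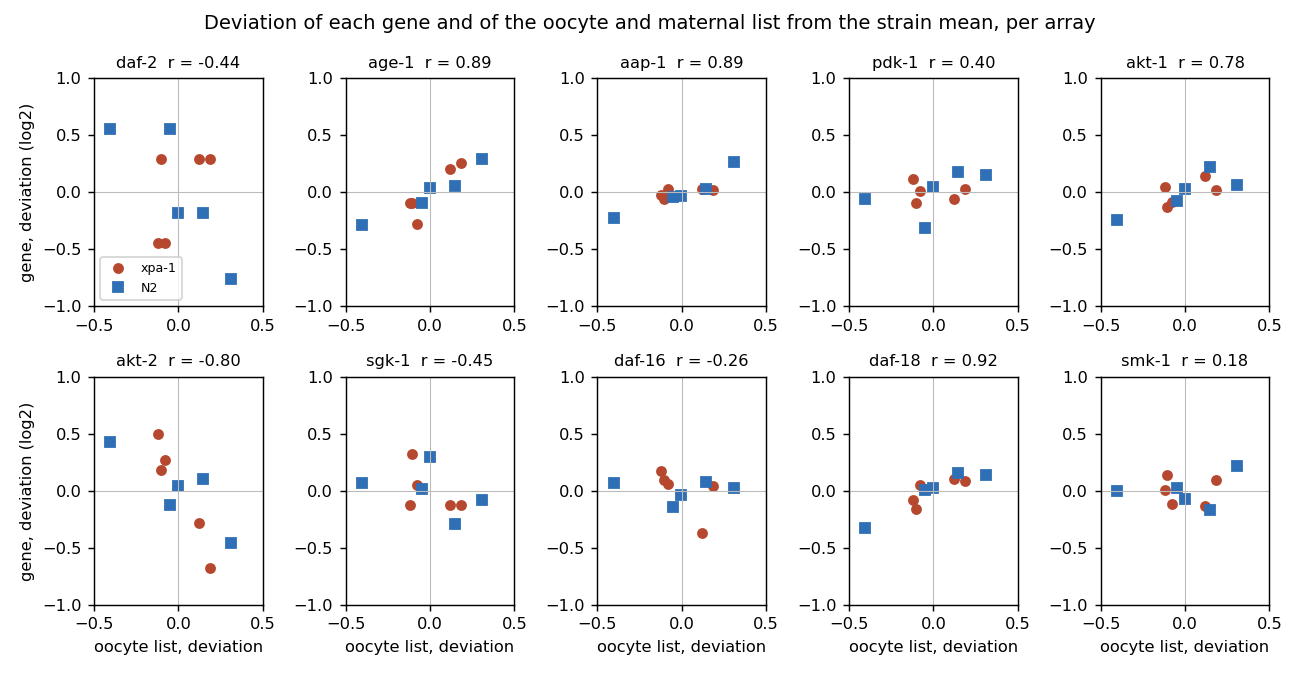
Deviation of each gene's log2 signal from its strain mean (vertical) against that of the mean of the oocyte and maternal list (horizontal), 1 point per array, circles for xpa-1 and squares for N2, with Pearson's r over the 10 arrays above each panel. Points of age-1, aap-1, akt-1 and daf-18 climb to the right (r from 0.78 to 0.92) and those of akt-2 descend (r = -0.80).

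These relations rest in part on a few cultures. Without the 2 arrays farthest from the median of each list, 4 of 30 relations passed, by exact permutation tests over 8 arrays. Both of age-1 passed, at r = 0.85 with the oocyte list (adjusted p = 0.0495, just under the threshold) and -0.92 with the molting list (adjusted p = 0.0186). For the molting list the arrays left out were N2 replicate 1 and xpa-1 replicate 5. N2 replicate 5, with the highest molting list mean (7.15) and the lowest age-1 value (6.15), was thus kept there. That of daf-18 with the oocyte list had r = 0.82 (adjusted p = 0.0603), that of akt-2 -0.78 (adjusted p = 0.0814), that of akt-1 0.70 (adjusted p = 0.16) and that of aap-1 0.67 (adjusted p = 0.188), where N2 replicates 1 and 5 had been left out. Those of aap-1, akt-2 and daf-18 with the molting list, at -0.71, 0.71 and -0.80, did not pass either (adjusted p from 0.0814 to 0.16). The relation of sgk-1 to the sperm list had r = 0.56 without N2 replicates 2 and 4. The others that passed without 2 arrays were pdk-1 with the sperm list (r = -0.88) and akt-1 with the molting list (r = -0.87), whose r had not passed over all 10 arrays.

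Relations to the oocyte and molting lists were frequent among all bright genes. Of the 5054 genes with a mean log2 signal over 6, 31.8% had an r with the oocyte and maternal list at or above 0.78, the value of akt-1, and 8.71% had one at or below -0.78. The median r was 0.53. With the molting list, 24.2% had an r at or below -0.76, the value of daf-18, and 11.1% had one at or above 0.76. With the sperm list, 1.82% had an r at or above 0.80, the value of sgk-1, and 0.376% had one at or below -0.80. sgk-1 and akt-2 themselves have means under 6 and are not among these genes. The relations of age-1, aap-1, akt-1 and daf-18 to the oocyte and molting lists are thus of a kind that many bright genes share. For genes with a mean under 6, such as akt-2 and sgk-1, no such share was computed. Nothing particular to the pathway is read from any of these relations. All 22 genes of the oocyte list are themselves among these 5054, as are 21 of the sperm list and 8 of the molting list. The shares thus include genes that make up the lists.

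Between the genes themselves, 45 pairs were compared. For Pearson's r, 2 pairs passed, age-1 with akt-2 (r = -0.85, permutation p = 0.00203, adjusted p = 0.04995) and akt-1 with daf-18 (r = 0.83, permutation p = 0.00222, adjusted p = 0.04995). Both lie just under the threshold, and these permutation p-values can be too small, so neither pass is firm. For Spearman's rho the count was 0 (rho = -0.78 and 0.81, adjusted p = 0.134 for both). Without the 2 arrays farthest from the median of the first gene, r was -0.72 and 0.62 over 8 arrays (exact permutation test, unadjusted p = 0.0413 and 0.101). aap-1 and daf-18, at r = 0.81, missed the threshold (adjusted p = 0.0582) and had r = 0.84 without 2 arrays.

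The genes whose pattern over the 10 arrays was most like that of daf-16, among the genes with a mean log2 signal over 6, were pkn-1 (r = 0.93), a protein kinase N homologue, aly-1 (r = 0.90), an mRNA export factor, and famh-136 (r = 0.90). They were picked from 5053 genes, so the r values are a description. For daf-2 the highest r were 0.68 for clec-186, oxa-1 and ugt-44, against a profile that itself holds only the lowest steps of the scale.

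Other genes of the pathway were followed in 7 lists, of which 80 of 87 genes were measured. In limma 0 of the 80 passed an adjusted p of 0.05 (0.111% of all genes did), and 5 had an unadjusted p under 0.05, against 3.32% of all genes. Upstream of the receptor, 9 genes of adaptors and peptide secretion had a median difference of 0.07, beside 0.02 over all genes, and of -0.01 without N2 replicate 1. Among them the targeting factor asna-1, which promotes insulin secretion, stood at 7.73 ± 0.07 in xpa-1 and 7.65 ± 0.07 in N2 (SD, n = 5 each). egl-21, a carboxypeptidase that processes neuropeptides, stood at 7.82 ± 0.39 in xpa-1 and 7.73 ± 0.46 in N2, and the adaptor shc-1, with the largest difference of its list, differed by 0.26 (SE 0.199).

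Among 13 regulators of AKT and TOR, the median difference was -0.01. The protein phosphatase 2A genes let-92 (catalytic subunit) and paa-1 (scaffold) were the brightest, with differences of -0.04 (SE 0.0592) and -0.01 (SE 0.104). eak-4, which acts in parallel to akt-1, had the largest difference, 0.60 (SE 0.381), at a mean of 0.92 in xpa-1 and 0.32 in N2 and thus at the floor. The 17 measured regulators of DAF-16 had a median of 0.04. The genes par-5 and ftt-2 encode the phosphoprotein-binding proteins that hold DAF-16 in the cytoplasm, and they stood at 10.80 ± 0.07 and 9.52 ± 0.27 in xpa-1, against 10.77 ± 0.12 and 9.64 ± 0.25 in N2. jkk-1, a kinase upstream of JNK, had a difference of 0.51 (SE 0.194, 95% interval 0.07 to 0.95), with an unadjusted p of 0.0271 and an adjusted p of 1 in limma, at 3.47 ± 0.25 in xpa-1 and 2.96 ± 0.38 in N2.

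The 10 measured transcription factors that act beside DAF-16 had a median difference of 0.10. xbp-1, of the unfolded protein response, and nhr-49, a nuclear receptor of fat metabolism, each differed by 0.10 (SE 0.123 and 0.0976). The largest difference was that of pqm-1, which controls a second class of DAF-16-dependent genes, at 0.22 (SE 0.159). Of the insulin-like peptides, 10 measured agonists had a median of 0.05, and -0.02 without xpa-1 replicate 1. The median of 5 antagonists was -0.14, and -0.01 without N2 replicate 4. Of these 15 peptide genes, 0 had a mean log2 signal over 6 across the 10 arrays. The agonist ins-35 ranged from 4 to 7.50 in xpa-1 and from 1.58 to 7.85 in N2. The agonists ins-33 and ins-4 differed by 0.26 (SE 0.404) and 0.61 (SE 0.291). The antagonists ins-17, ins-18 and ins-37 differed by 0.06 (SE 0.19), -0.20 (SE 0.106) and -0.95 (SE 0.634), and the last ranged from 0 to 2.81 in xpa-1 and from 1 to 3 in N2.

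The downstream readout of the pathway followed the cultures as well. For 16 measured genes that DAF-16 is known to raise, the median difference was 0.08, with 0 called and 2 of 16 at an unadjusted p under 0.05, against 3.32% of all genes. sip-1, a small heat shock protein gene, differed by 0.07 (SE 0.0884). lea-1, linked to desiccation tolerance, differed by 0.52 (SE 0.211), with an unadjusted p of 0.0358 and an adjusted p of 1 in limma. The metallothionein gene mtl-1 had the largest difference, 1.18 (SE 0.871), but ranged from 3.17 to 5.98 in xpa-1 and from 1 to 5.36 in N2.

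The mean of the DAF-16 target list read 6.43, 6.09, 6.42, 6.38 and 6.07 on the xpa-1 arrays and 5.70, 6.17, 6.13, 6.15 and 6.54 on the N2 arrays. The lowest was N2 replicate 1 and the highest N2 replicate 5, which were also the lowest and the highest for the molting list (5.35 and 7.15). The target list rose with the molting list (r = 0.95, permutation p = 6e-05, adjusted p = 0.00018, rho = 0.87) and fell with the oocyte list (r = -0.94, permutation p = 0.0002, adjusted p = 0.0004, rho = -0.88). Without N2 replicates 1 and 5, r was 0.91 and -0.82. With the level of daf-16 itself it had r = 0.37 (permutation p = 0.278, adjusted p = 0.417) and rho = 0.66 (adjusted p = 0.0671), and r = 0.34 without xpa-1 replicate 2 and N2 replicate 3. How far stage accounts for the level of the targets was not tested. The mean of 9 intestine genes was likewise lowest on N2 replicate 1 (8.03) and highest on N2 replicate 5 (8.55). That of 10 muscle genes was highest on N2 replicate 5 (9.55) and lowest on xpa-1 replicate 2 (8.96). The target list was not compared with such lists in a test, and nothing particular to DAF-16 targets is read from its relations. A list of 3 cuticle genes linked to the dauer larva, cut-1, col-2 and col-40, had a mean of 4.64, 1.80, 2.98, 2.98 and 1.36 in xpa-1 and 1.19, 2.58, 3.49, 2.11 and 4.01 in N2. The arrays of each strain thus spanned most of the range, and the list did not separate the strains.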

How the data were processed

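Transcripts of 5 xpa-1 and 5 N2 cultures were measured on Affymetrix arrays. The authors deposited log2 signals per probe set, made with Affymetrix Expression Console per the submitters' processing notes. The labels do not state the summary, background or scaling steps. Of 22625 probe sets, 77 controls were left out, and 20766 had 1 symbol, which gave 17118 genes. Of 134454 values below 5, 100% were logs of whole numbers within 0.005.

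The log2 values were used as deposited. The level was fitted in limma 3.58.1 (R 4.3.3; lmFit and eBayes, two-sided), and p-values were adjusted across all genes by Benjamini-Hochberg. The spread was fitted alike, on absolute deviations from the strain mean, and both fits were tested on simulated data, where the fit of spread made no calls and so has little power at this number of arrays. Relations over arrays used Python 3.11.15 with 100000 permutations, two-sided, or all orders for 8 arrays. These permutations and the exact test of the SDs moved deviations from the strain mean freely across strains. The removed strain means were not allowed for, so these p-values are approximate. For arrays their number limits the precision.

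Every probe set of the genes was described. Of each list, the 2 brightest genes and the 1 with the largest difference were named, and for daf-2 and daf-16 the 3 genes of most similar pattern. The members and lists were chosen with earlier results of these data known. The alternatives were quantile normalization, median centring, an offset of 16, a minimum mean of 4, the mean of all probe sets, array weights, the replicate block, a stage covariate and leaving out each array. The exact test of the SDs and the relations of second probe sets were added after seeing the data. Chromosomes come from the RefSeq gene table of WBcel235; coordinates and sequences were not used here.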

Additional observations from a re-analysis of the deposited data

Results flagged for a closer look

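For each probe set of the 10 genes, for xpa-1 and for 10 list means, each strain's 5 arrays were searched for a single value far from the other 4 (74 groups of 5, of which chance gives about 1 in 20), and 4 were found. The probe set standing for daf-16 read 6.52 on xpa-1 replicate 2, where the other 4 lay between 6.93 and 7.06. The other 3 lie on the lowest steps of the scale. The dim daf-16 probe set read 1 on xpa-1 replicate 4 against 2 to 2.32, a dim daf-2 probe set read 1 on xpa-1 replicate 3 where the other 4 are listed at 0, and a dim pdk-1 probe set read 1.58 on N2 replicate 5 against 1.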

How the results depend on the processing

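The count of called members was 0 under every alternative run, for level and for spread. For spread this says little, since that fit made no calls on the simulated data. The count of called genes was 19 for level, 12 with a minimum mean of 4, and from 13 to 21 without 1 array. With replicate number as a replicate block it was 5. Same-numbered arrays did not deviate together (r from -0.27 to -0.03 over genes). The labels do not say whether the numbers mark batches, and these r cannot settle it. For spread it was 221, from 211 to 293 without 1 array, and 0 with the offset of 16, with the minimum mean of 4 and with deviations from the strain median. Relations past the threshold numbered 10, and 4 without the 2 farthest arrays.

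Several differences changed sign, none of them called. They include that of daf-2, which was 0.264 by its brightest probe set. With the mean of all probe sets the strain difference was -0.013 for daf-2, -0.25 for pdk-1, 0.044 for daf-18 and 0.137 for smk-1. With array weights it was -0.001 for akt-1, 0.086 for akt-2, -0.033 for sgk-1, 0.055 for daf-16 and 0.009 for smk-1. With the oocyte list as a covariate it was -0.003 for akt-1 and 0.041 for akt-2. For sgk-1 it was -0.018 with quantile normalization and -0.002 with median centring. Leaving out 1 array gave -0.023 to 0.1 for pdk-1, -0.039 to 0.079 for akt-1, -0.154 to 0.139 for akt-2, -0.069 to 0.086 for sgk-1, -0.065 to 0.07 for daf-16 and -0.053 to 0.042 for smk-1.

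The spread difference with the mean of all probe sets was -0.004 for age-1, 0.011 for pdk-1, -0.064 for daf-16 and -0.157 for smk-1, and for smk-1 -0.031 with quantile normalization and -0.062 with median centring. The log2 ratio of the SDs of smk-1 was -0.221. Leaving out 1 array gave -0.015 to 0.081 for age-1, -0.034 to 0.126 for daf-16, -0.079 to 0.031 for daf-18 and -0.029 to 0.034 for smk-1. Without the 2 farthest arrays, r was 0.281 for daf-2 with the oocyte list, 0.034 for akt-2 with sperm, and -0.026, -0.285 and 0.654 for smk-1 with sperm, oocyte and molting. Other probe sets gave 0.11 and -0.445 for daf-16 with oocyte and molting, and 0.147 for smk-1 with molting. Without 1 array, list medians ran from -0.01 to 0.1 for adaptors and secretion, -0.07 to 0 for AKT and TOR regulators, -0.0005 to 0.06 for DAF-16 regulators, 0.04 to 0.13 for partner factors, 0.02 to 0.14 for targets, -0.02 to 0.16 for agonists and -0.21 to -0.01 for antagonists. The cause of these changes was not tested.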
